A study of Rattus norvegicus with 40 samples.

Results

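Livers of Long-Evans (L-E) and Han/Wistar (H/W) rats were compared 3 h after a dose of 100 µg/kg TCDD, the dioxin 2,3,7,8-tetrachlorodibenzo-p-dioxin, with 4 rats of each strain and 1 Affymetrix RAE230A array per rat. These 8 arrays are all of the 3 h arrays among the 40 of the series, and they were taken as a set by their labels alone. The rats were males of 10 to 12 weeks that received TCDD by gavage. L-E rats are dioxin-sensitive and carry a wild-type aryl hydrocarbon receptor (AHR), whereas H/W rats are dioxin-resistant and carry a form of the AHR that lacks a stretch of the transactivation domain. The published methods place the taking of livers in the morning for rats dosed 19 h before, and give no time of day for the 3 h rats. The 3 h design has no vehicle group of its own. Each gene was therefore set beside the difference between the same strains in corn oil vehicle at 19 h (4 L-E and 4 H/W rats), to see which differences were also present without TCDD. Time since gavage and scan day differ between the 2 comparisons as well as TCDD. Their effects on a change of the strain difference cannot be told apart. For a second view of strain background, corn oil rats of line C (LnC, wild-type AHR, sensitive) and line A (LnA, deleted AHR, resistant), both bred from crosses of these strains, were compared in the same way with 4 rats each.

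AHR is a ligand-activated transcription factor that waits in the cytosol with the chaperone HSP90, enters the nucleus when it binds dioxin, pairs with ARNT and binds short DNA elements with the core letters GCGTG. In liver its best known targets encode enzymes that oxidise and conjugate foreign compounds, with Cyp1a1 first among them. The H/W receptor lacks part of the segment that recruits coactivators, while its DNA-binding part is intact.

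All values are log2 signals, 1 probe set per gene, and 10411 genes were tested with limma (linear models gene by gene, with moderated variances). Genes with an adjusted p under 0.01 were called (Benjamini-Hochberg over all 10411 genes). Differences are L-E minus H/W, with their standard error (SE), and ± after a mean is the SD of 4 rats. The array medians of the 8 arrays lay between 3.54 and 3.65, and an array's mean correlation with its group between 0.995 and 0.996. All 9 hepatocyte markers measured lay above the array median in each group. All 8 arrays shared 1 scan day, with the 4 H/W arrays before the 4 L-E arrays, and the methods describe a cage per treatment group, so strain, cage and order of scanning cannot be told apart. At 3 h the arrays also differed by signal height. In the 4164 brightest genes (40% of all) the median difference was 0.09, against 1.45e-05 in corn oil, and in the 6247 other genes it was -0.05 at 3 h and -0.05 in corn oil.

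At 3 h after TCDD, 227 genes differed between the strains, of which 164 were higher in L-E and 63 higher in H/W livers (2.18% of genes tested, 1.58% and 0.605% by direction). In corn oil 27 genes differed (16 higher in L-E, 11 higher in H/W, 0.259% of genes tested). The corn oil comparison was less precise, with a median SE of 0.086 against 0.060 at 3 h, so the 2 counts are not on equal terms. In 1 fit over all groups of the series, with a shared variance, the counts were 380 at 3 h and 210 in corn oil. Of the 227 genes, 184 (81.1%) had the same sign in corn oil, against 73.1% of all genes, and 20 were also called there. These 20 genes are 8.81% of the calls at 3 h and all but 7 of those in corn oil. The corn oil difference was at least 0.5 times that at 3 h in 112 of the 227 genes, and in 77 it was under 0.25 times that at 3 h or of the other sign. The test of the change itself, the 3 h difference minus the corn oil difference in a fit of 16 arrays, called 6 genes (0.0576% of genes tested), all with a larger value in L-E at 3 h. Across the 10411 genes, the differences at 3 h and in corn oil had a Pearson r of 0.57, as a description, since genes are not independent replicates. With 0.05 as the threshold there were 696 genes at 3 h (6.69%), 96 in corn oil (0.922%) and 33 for the change (0.317%).

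The count at 3 h rested on all 8 arrays: it lay between 75 and 118 when any 1 of them was left out. The corn oil count was 10 to 15 without any 1 L-E corn oil array and 19 to 25 without any 1 H/W array, and the count of changes 0 to 4 without any 1 of the 16 arrays. The split by direction moved with the scaling, from 72.2% of calls higher in L-E to 46.9% (60 of 128) after quantile normalization and 47.4% (64 of 135) after cyclic loess. The median of all genes was -0.00662 and 0.00161 after these 2 scalings (-0.04 before). Both are made to even out shifts with signal height, but the shift was not measured again after them. Groups did not overlap at 3 h in 3386 genes (32.5%), 916 with L-E higher (8.80%) and 2470 with H/W higher (23.7%), and in corn oil in 877 genes (8.42%).

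**Figure D1:**
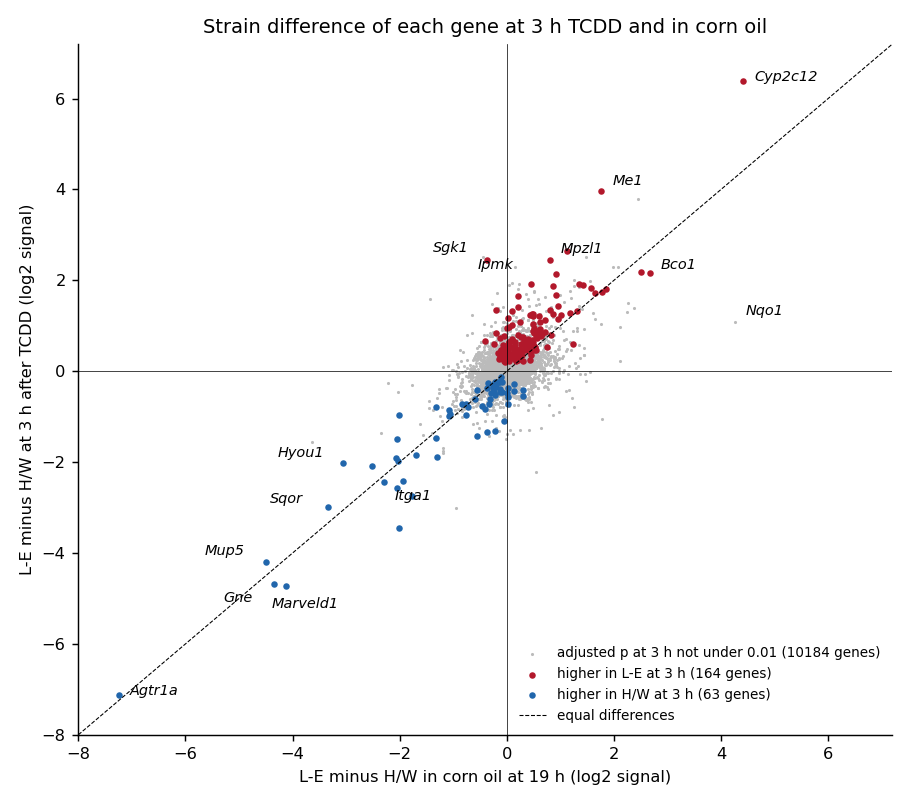
Each point is 1 of 10411 genes, with the L-E minus H/W difference in corn oil at 19 h on the x axis and at 3 h after TCDD on the y axis (both log2 signal). Red and blue points are the 164 and 63 genes called at 3 h. Agtr1a, Gne, Mup5 and Sqor lie near the dashed line of equal differences, whereas Sgk1, at 2.46 and -0.37, lies far above it.

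None of the 11 measured genes of the AHR-inducible list was called as different between the strains at 3 h, and their median difference was 0.11 (all genes -0.04). The sign of this median depended on the scaling, with 7 of the 11 positive here and 5 with a median of -0.02 after quantile normalization, and 5 with a median of -0.000191 after cyclic loess. By limma, 5 of the 11 (35.2% of all genes) had an unadjusted p under 0.05, and Nqo1 alone an adjusted p under 0.05. Cyp1a1, a monooxygenase and the usual marker of AHR activity, had signals of 14.11, 14.14, 14.19 and 13.97 in the L-E livers and 13.91, 13.95, 14.01 and 14.11 in the H/W livers. The groups overlapped, and the difference was 0.11 (SE 0.06, adjusted p = 0.193, 95% interval -0.03 to 0.25). In corn oil Cyp1a1 read 2.13, 2.14, 6.16 and 5.49 in L-E and 2.38, 2.39, 8.60 and 2.89 in H/W rats. All 8 TCDD livers were thus above all 8 corn oil livers, and 3 corn oil livers stood well above the other 5.

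Aldh3a1, an aldehyde dehydrogenase of the same gene battery, read 10.82, 10.79, 11.89 and 9.90 in L-E and 11.43, 10.61, 10.06 and 11.31 in H/W livers at 3 h. The groups overlapped, and the 95% interval of the difference, -1.11 to 1.11, leaves room for a change either way. Cyp1a2, the constitutive P450 of this family, differed by 0.13 (SE 0.04, adjusted p = 0.104), and Nfe2l2, which encodes the antioxidant factor NRF2, by -0.25 (SE 0.12, adjusted p = 0.166). Tiparp, an ADP-ribosyltransferase that restrains AHR, averaged 9.80 ± 0.55 in L-E and 10.76 ± 0.47 in H/W livers (difference -0.96, SE 0.33, adjusted p = 0.112). Cyp1b1 had an L-E value of 6.46 in 1 rat and 4.45 to 5.01 in the other 3, against 3.73 to 4.67 in H/W livers (adjusted p = 0.21). The other members differed by -0.43 (Selenbp1) to 0.43 (Xdh, xanthine dehydrogenase), with adjusted p from 0.0772 to 0.989.

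Nqo1, the quinone reductase, was the member whose strain difference moved most. In corn oil it read 9.66, 9.96, 9.24 and 8.82 in L-E and 3.66, 6.83, 5.32 and 4.84 in H/W livers. At 3 h after TCDD it read 11.64, 11.31, 11.63 and 11.61 in L-E and 10.21, 10.34, 10.34 and 10.98 in H/W livers. The strains did not overlap on either occasion, but the gap was 4.26 in corn oil (SE 0.63, adjusted p = 0.0306) and 1.08 at 3 h (SE 0.17, adjusted p = 0.0143). The change of -3.18 did not pass the test (SE 0.69, adjusted p = 0.0808), nor did either difference pass 0.01. In the lines Nqo1 averaged 8.82 in LnC and 8.70 in LnA corn oil livers (difference 0.12, SE 0.46, adjusted p = 0.961).

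Set against corn oil rats of the same strain, 8 of the 11 AHR-inducible genes were called as higher at 3 h in L-E (2.55% of all genes were called, 1.38% as higher) and 6 in H/W (1.09% and 0.749%). At an adjusted p under 0.05 these were 9 (8.42% of all genes) and 7 (4.76%). Time since gavage and scan day differ between these groups as well as TCDD, so the effects of these cannot be told apart. Cyp1a1 was higher by 10.1 in L-E and 9.93 in H/W livers on the log2 scale, Aldh3a1 by 8.03 and 7.25, Tiparp by 3.79 and 4.69, Nfe2l2 by 1.98 and 1.96, and Cyp1a2 by 0.77 and 0.71, each called in both strains. The corn oil signals of Aldh3a1 (2.48 to 4.47) and of Cyp1a1 in 5 of the 8 rats (2.13 to 2.89) lay near or under the array median, so the sizes of these 2 differences depend on the low end of the scale. Nqo1 was higher by 2.13 in L-E and by 5.30 in H/W livers. The calls of Aldh3a1, Tiparp and Nfe2l2 were kept without each array in turn. Those of Cyp1a1 and Cyp1a2 in H/W were lost without any 1 array other than corn oil replicate 3, the rat with a Cyp1a1 signal of 8.60 (adjusted p up to 0.0311 and 0.0208), and that of Cyp1a1 in L-E was lost without TCDD replicate 2 or 3 (up to 0.0112). Those of Nqo1 were lost in H/W without any 1 TCDD array or corn oil replicate 3 (up to 0.0188), and in L-E without any 1 array other than corn oil replicates 2 and 4 (up to 0.0161).

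Exoc3, a subunit of the exocyst, was called in L-E (1.59, adjusted p = 0.000757) but not in H/W livers (1.21, adjusted p = 0.0236), where it was called only without corn oil replicate 2 (adjusted p = 0.00138). Xdh was called in L-E (1.07, adjusted p = 0.00347), though not without any 1 of 6 arrays (up to 0.012), and stood at 0.45 in H/W livers (adjusted p = 0.06). The difference between the strains in this response was not called for either gene (0.37, adjusted p = 0.749 for Exoc3 and 0.62, adjusted p = 0.153 for Xdh).

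**Figure D2:**
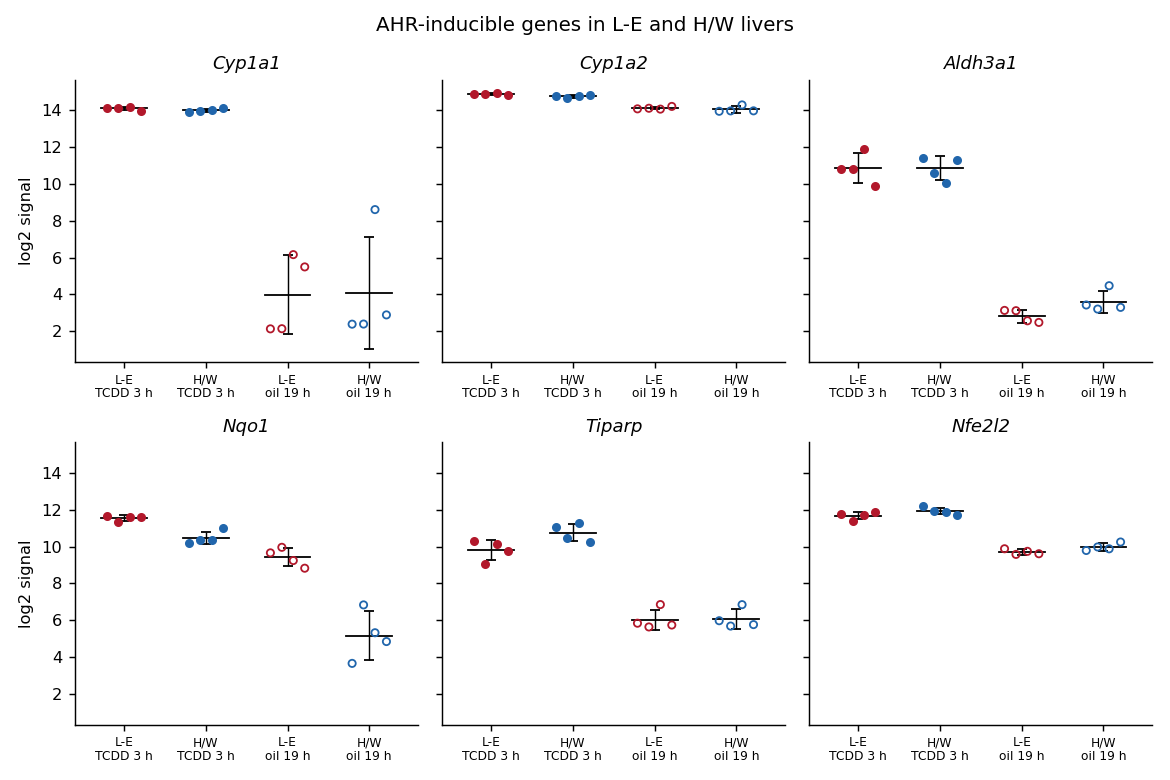
Signals of 6 AHR-inducible genes (y axis, log2 signal, same scale in all panels) in the 4 groups on the x axis, filled points for TCDD at 3 h and open points for corn oil at 19 h, red for L-E and blue for H/W, with mean and SD of 4 rats. Cyp1a1 reached 14.1 in L-E and 14.0 in H/W livers, and Nqo1 is the panel in which the corn oil groups stand farthest apart.

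The receptor and its partners gave no call at 3 h. Ahr itself was at the low end of the scale at 3 h, with 3.00, 3.97, 4.16 and 2.97 in L-E and 3.01, 2.64, 3.01 and 3.06 in H/W livers (difference 0.60, SE 0.30, adjusted p = 0.172). These signals lay around the array median. Of the 9 measured members of the complex none was called by limma, while 6 had an unadjusted p under 0.05 (35.2% of all genes). Arnt, the dimer partner, differed by -0.15 (adjusted p = 0.621), Ptges3, the co-chaperone p23, by 0.16 (adjusted p = 0.116), and Hsp90ab1, the chaperone, by 0.29 (adjusted p = 0.0499). Arnt2, Ncoa2 and Ncoa3 lay under the array median in both strains. Ncoa1 and Hif1a, which encodes the other well known partner of ARNT, differed by 0.11 and -0.19 (adjusted p = 0.683 and 0.125).

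Promoters of 6 genes are shown as examples. Tiparp, Nqo1 and Cyp1b1 are from the AHR-inducible list, and none of them was called at 3 h. Mpzl1 had the largest called change of the strain difference, and Me1 and Agtr1a had large differences between the strains. Each sequence is the 250 bases before the RefSeq transcription start in the GRCr8 rat assembly, read 5′ to 3′ on the strand of the gene. Capitals mark the AHR core GCGTG or, for a site on the other strand, CACGC.
Tiparp, chr2:152063519-152063768, plus strand: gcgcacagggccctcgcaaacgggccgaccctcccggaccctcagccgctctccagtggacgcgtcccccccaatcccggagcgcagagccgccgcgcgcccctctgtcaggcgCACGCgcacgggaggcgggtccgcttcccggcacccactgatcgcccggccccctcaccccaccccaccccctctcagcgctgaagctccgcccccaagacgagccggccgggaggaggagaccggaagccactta
Nqo1, chr19:52220268-52220517, minus strand: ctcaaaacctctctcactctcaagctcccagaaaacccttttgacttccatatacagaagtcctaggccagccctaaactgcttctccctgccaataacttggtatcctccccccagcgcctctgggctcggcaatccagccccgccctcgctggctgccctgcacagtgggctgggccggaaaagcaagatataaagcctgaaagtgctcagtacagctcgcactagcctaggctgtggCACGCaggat
Cyp1b1, chr6:21094315-21094564, plus strand: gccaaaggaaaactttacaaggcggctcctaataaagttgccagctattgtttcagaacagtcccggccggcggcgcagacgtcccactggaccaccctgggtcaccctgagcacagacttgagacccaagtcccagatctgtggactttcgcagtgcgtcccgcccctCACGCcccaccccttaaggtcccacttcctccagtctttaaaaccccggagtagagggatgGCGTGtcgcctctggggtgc
Mpzl1, chr13:80422229-80422478, minus strand: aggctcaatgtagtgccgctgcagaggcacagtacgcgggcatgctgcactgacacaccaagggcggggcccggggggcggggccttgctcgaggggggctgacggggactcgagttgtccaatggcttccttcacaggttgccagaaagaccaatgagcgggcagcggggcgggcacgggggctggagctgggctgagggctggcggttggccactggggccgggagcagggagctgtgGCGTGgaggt
Me1, chr8:96540245-96540494, minus strand: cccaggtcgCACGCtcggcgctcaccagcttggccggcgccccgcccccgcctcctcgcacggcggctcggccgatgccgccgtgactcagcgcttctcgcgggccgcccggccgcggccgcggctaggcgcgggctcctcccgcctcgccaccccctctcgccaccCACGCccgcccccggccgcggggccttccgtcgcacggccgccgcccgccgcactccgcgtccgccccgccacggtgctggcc
Agtr1a, chr17:34435433-34435682, minus strand: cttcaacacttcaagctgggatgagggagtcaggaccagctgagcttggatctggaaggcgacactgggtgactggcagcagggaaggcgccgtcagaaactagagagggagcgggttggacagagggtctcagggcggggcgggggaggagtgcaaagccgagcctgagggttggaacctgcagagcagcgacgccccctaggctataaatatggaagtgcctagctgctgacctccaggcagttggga
The core occurred in 25.9% of all 33469 promoter windows of this length and in 42.7% of those of the genes tested (8123 windows). It was found in the windows of 4 of 8 AHR-inducible genes with an entry, and of 60 of 137 genes called higher in L-E (43.8%) and 20 of 56 called higher in H/W (35.7%). Among the 10 genes with the largest values in L-E it was in 2 of 8 windows (25%), those of Me1 and Mpzl1 shown here. Among the 10 with the largest values in H/W it was in 2 of 10 windows (20%). Such a match is a description of these letters in a reference rat, not in the 2 strains.

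Several of the largest strain differences at 3 h were of the same size in corn oil. Agtr1a, which encodes the angiotensin II receptor, read 3.74, 4.13, 3.99 and 3.94 in L-E and 11.35, 11.30, 10.70 and 10.93 in H/W livers at 3 h. All L-E livers were close to the array median and all H/W livers were high, a difference of -7.12 (SE 0.16, adjusted p = 4.3e-06), measured from L-E signals at the low end of the scale. In corn oil the difference was -7.25 (SE 0.24, adjusted p = 1.45e-05). Its change was 0.13 (SE 0.30, 95% interval -0.51 to 0.77). The other probe set of Agtr1a differed by -6.49 at 3 h.

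Gne, whose product starts the synthesis of sialic acid, read between 4.94 and 4.998 in all 4 L-E livers and 8.84, 10.15, 9.75 and 9.87 in H/W livers at 3 h. The groups lay far apart (difference -4.68, SE 0.26, adjusted p = 0.000284), as they did in corn oil (-4.34, SE 0.14, adjusted p = 1.45e-05). Sqor, a mitochondrial enzyme that oxidises sulfide, differed by -2.98 at 3 h and -3.34 in corn oil (adjusted p = 0.00194 and 1.45e-05). Retsat, a retinol saturase, differed by -2.56 and -2.05 (adjusted p = 0.0014 and 0.00177). Marveld1, a membrane protein, had 2.27 to 2.29 in L-E livers, under the array median, and 6.07 to 7.83 in H/W livers, so the size of its difference (-4.73, adjusted p = 0.000769) depends on the low end of the scale. Its other probe set was under the array median in both strains.

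Of the 10 genes with the largest values in H/W, the other 5 were Mup5, Rtn4ip1, Aqp1, Itga1 and Cela1. Rtn4ip1, a mitochondrial protein, differed by -3.44 at 3 h (adjusted p = 0.00509) and by -2.01 in corn oil (adjusted p = 0.0421). Aqp1, the water channel, had 1 high H/W liver (6.84) beside 5.21 to 5.38 in the other 3, and lost its call without any 1 array except that one. Cela1, an elastase known from pancreas, differed by -2.41 (SE 0.21, adjusted p = 0.00159), while Prss1, Pnlip, Cpa1 and Ctrb1, which define pancreatic acinar cells, were under the array median in both strains. Itga1, a subunit of a collagen-binding integrin, differed by -2.44 at 3 h (adjusted p = 0.00321).

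Among the genes higher in L-E, Cyp2c12 had the largest difference. This P450 hydroxylates steroid sulfates and is known in rats as female-predominant, although all of these rats were males. It read 11.38, 11.25, 11.18 and 11.63 in L-E and 4.36, 4.46, 5.99 and 5.07 in H/W livers at 3 h. The groups were far apart, by 6.39 (SE 0.35, adjusted p = 0.000284, 83.9 times in linear signal). In corn oil the L-E livers read 10.92 to 11.55 and the H/W livers 6.39 to 7.30, a difference of 4.41 (SE 0.21, adjusted p = 0.000161). The change of 1.98 did not pass (SE 0.43, adjusted p = 0.0808).

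Bco1, which cleaves beta-carotene to retinal, differed by 2.16 at 3 h and 2.68 in corn oil (adjusted p = 0.000461 and 0.000989). Its L-E livers read 7.09 to 7.48 and its H/W livers 4.89 to 5.43 at 3 h. Cd63, a tetraspanin of lysosomes, differed by 2.18 and 2.50 (adjusted p = 0.00333 and 0.0048), and Gpnmb, a glycoprotein of macrophages and other cells, by 1.93 and 1.35 (adjusted p = 0.0027 and 0.00924). Both retinoid enzymes named here, Bco1 and Retsat, were thus called with opposite signs, in corn oil as well as at 3 h.

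RT1-Bb, the beta chain of a class II histocompatibility molecule, differed by 2.64 (SE 0.31, adjusted p = 0.00497), with L-E livers at 8.36 to 8.81 and H/W livers at 5.24 to 6.79. Its other probe set had the opposite sign without a call (-1.66, adjusted p over probe sets 0.194), and genes of this region are highly polymorphic between rat strains. Dcn, a proteoglycan of the matrix, differed by 2.13 (SE 0.26, adjusted p = 0.00603). Both calls were lost without any 1 of 6 of the 8 arrays.

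**Figure D3:**
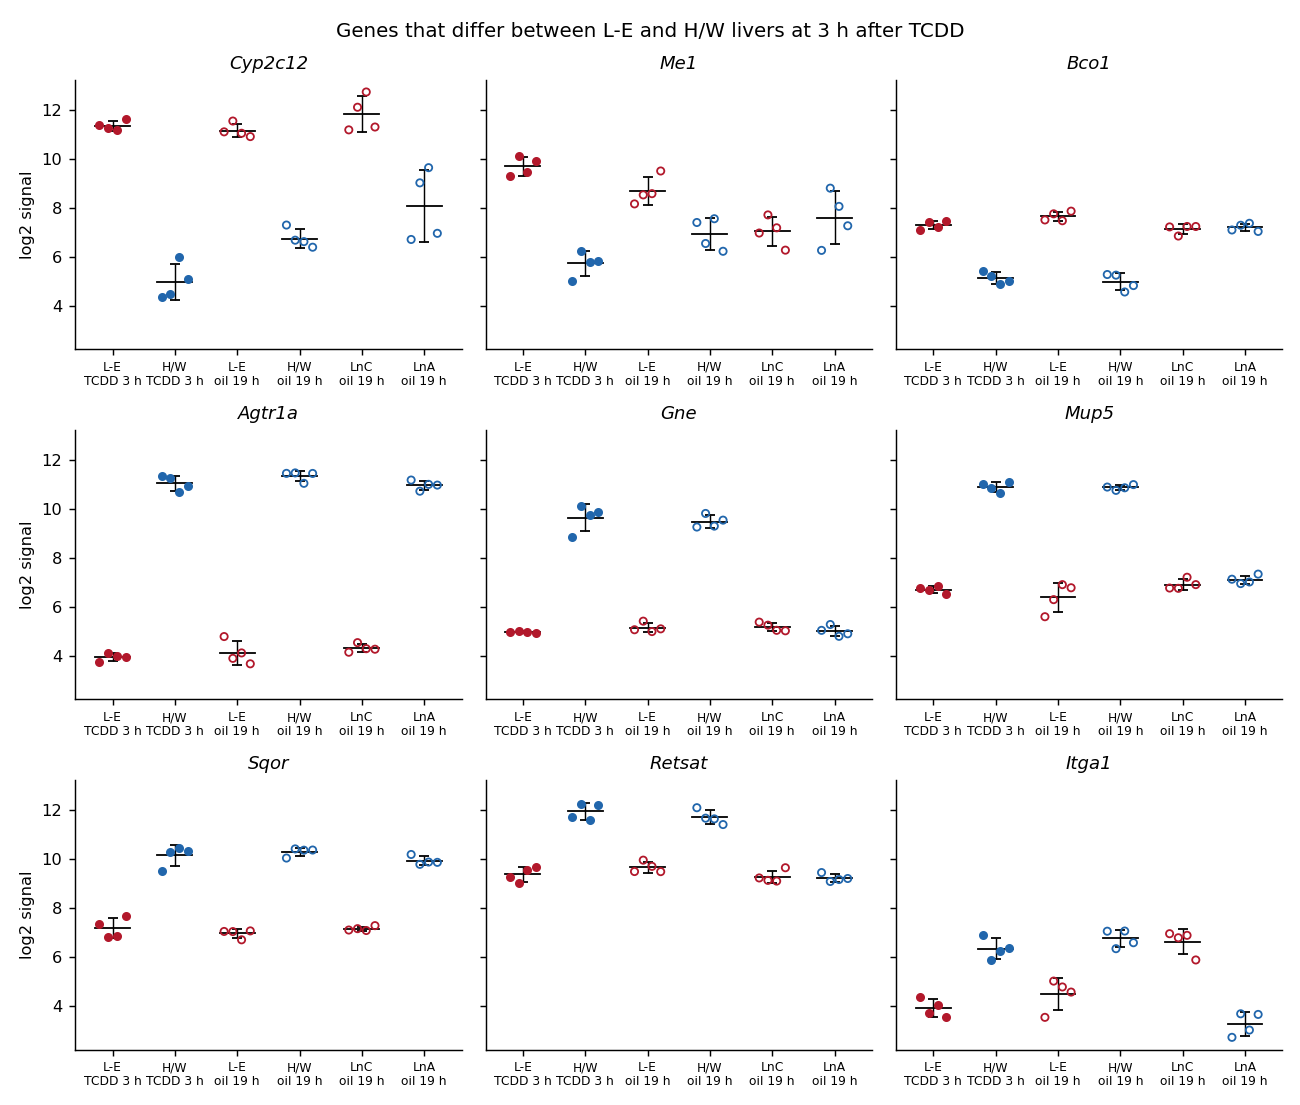
Signals of 9 genes called at 3 h (y axis, log2 signal, same scale in all panels) after TCDD at 3 h in L-E and H/W rats (filled points) and in corn oil rats of L-E, H/W, LnC and LnA at 19 h (open points), with mean and SD of 4 rats. Red groups carry the wild-type AHR and blue groups the deleted form; Agtr1a and Sqor divide by colour in all 6 groups, while Itga1 turns over in the lines.

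The lines gave another view of these genes. Of the 227 genes called at 3 h, 107 (47.1%) had the same sign in LnC minus LnA, and 7 were among the 19 called there (0.182% of genes tested, 0.0864% lower and 0.0961% higher). Agtr1a (-6.67), Marveld1 (-5.66), Sqor (-2.78) and Bckdhb (-1.55), a subunit of the branched-chain keto acid dehydrogenase, were called with the same sign as at 3 h. Itga1 (3.36), Creg1 (2.16), a secreted glycoprotein, and Cyp4v3 (0.50), a fatty acid hydroxylase, were called with the opposite sign. Creg1 was chosen for mention after its values were seen, and was lower in L-E at 3 h by 2.07 (difference -2.07, adjusted p = 0.000166). Gne and Mup5, by contrast with Agtr1a, differed little between the lines (0.17, adjusted p = 0.848 and -0.20, adjusted p = 0.76).

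The 6 genes with a called change of the strain difference were Mpzl1 and 5 ribosomal protein genes. Mpzl1, a membrane glycoprotein that binds the phosphatase SHP-2, read 5.44, 5.69, 5.66 and 5.58 in L-E and 3.25, 3.03, 3.01 and 3.29 in H/W livers at 3 h. In corn oil it read 3.76, 3.25, 3.26 and 3.37 in L-E and 3.10, 2.53, 2.35 and 2.46 in H/W livers. The 4 L-E livers at 3 h were apart from all others, and the H/W and corn oil livers lay near or under the array median. The difference was 2.45 at 3 h (SE 0.09, adjusted p = 3.59e-05) and 0.80 in corn oil (SE 0.19, adjusted p = 0.119), a change of 1.65 (SE 0.21, adjusted p = 0.00894).

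Against corn oil rats of its own strain, Mpzl1 was higher by 2.18 in L-E (adjusted p = 0.000347) and by 0.54 in H/W livers (adjusted p = 0.124). At 19 h after TCDD, which was not tested here, its mean was 5.56 ± 0.58 in L-E and 3.22 ± 0.07 in H/W livers, and 3.17 in LnC and 4.94 in LnA livers. The change had an adjusted p of 0.01004 to 0.0204, and so lost its call by a small margin, with the mean of probe sets, low genes left out, quantile normalization, median centring, cyclic loess or limma's trend. It was 0.00283 in a fit over all groups and 0.00016 with scan day as a block. Leaving out each of 16 arrays in turn, the change lay between 1.48 and 1.76 and the adjusted p between 0.00388 and 0.0258, under 0.01 in 2 of the 16 fits.

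Sgk1, a kinase induced by serum and glucocorticoids, and Ipmk, an inositol phosphate kinase, were the other named genes whose change had an adjusted p under 0.05. Sgk1 read 11.61, 11.60, 10.70 and 11.42 in L-E and 9.08, 9.20, 8.47 and 8.76 in H/W livers at 3 h. In corn oil it read 9.16, 8.73, 8.39 and 10.03 in L-E and 9.37, 8.64, 9.84 and 9.94 in H/W livers. The 3 h groups did not overlap (2.46, SE 0.25, adjusted p = 0.00291), the corn oil groups did (-0.37, adjusted p = 0.576), and the change was 2.83 (SE 0.51, adjusted p = 0.0375).

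Ipmk read 9.08, 8.90, 8.69 and 8.32 in L-E and 6.50, 6.61, 7.19 and 6.98 in H/W livers at 3 h (1.93, SE 0.21, adjusted p = 0.00393). Every L-E liver was above every H/W liver, and in corn oil the difference was 0.46 (adjusted p = 0.208), a change of 1.47 (SE 0.26, adjusted p = 0.0339). Neither change passed 0.01. The calls at 3 h were lost without any 1 of 5 arrays for Sgk1 and any 1 of 6 for Ipmk. At 19 h after TCDD the means of Ipmk were 7.54 ± 0.15 and 6.82 ± 0.13, and those of Sgk1 10.33 ± 0.66 and 9.41 ± 1.24.

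**Figure D4:**
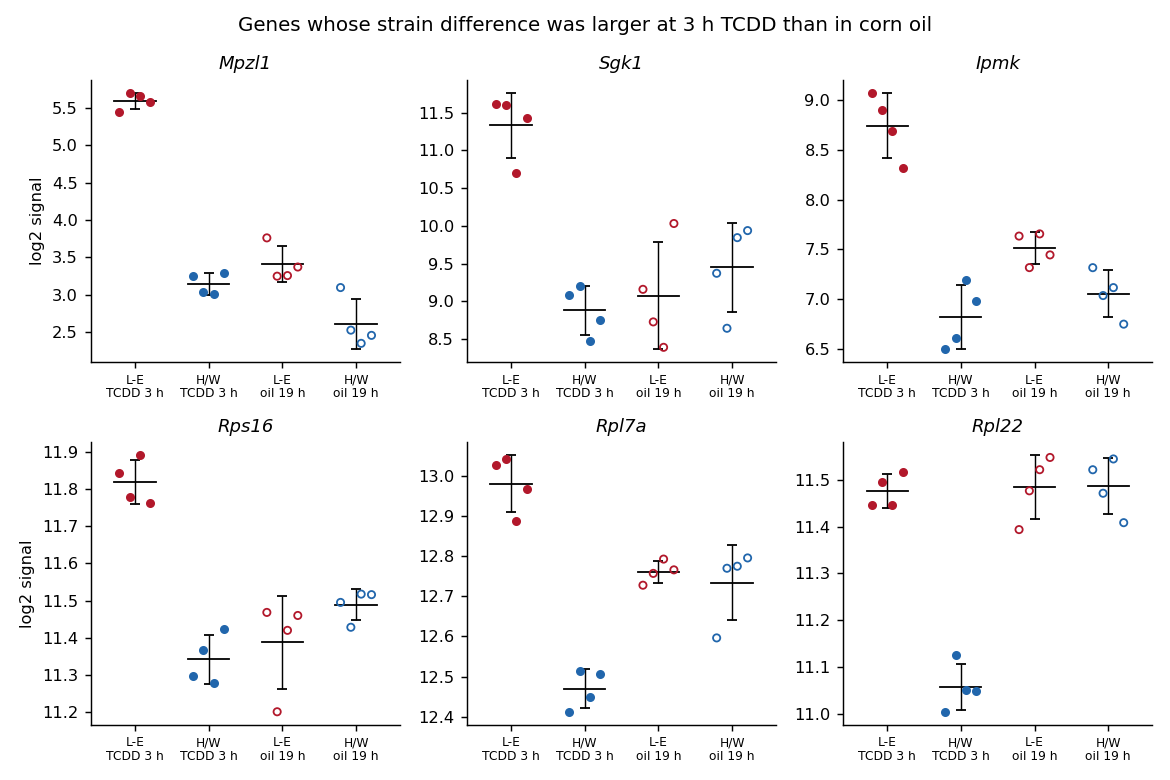
Signals of 6 genes (y axis, log2 signal, with its own scale in each panel) after TCDD at 3 h (filled) in L-E (red) and H/W (blue) rats and in corn oil at 19 h (open), with mean and SD of 4 rats. In each panel the L-E and H/W points at 3 h do not overlap; the ribosomal panels span under 1 log2 unit, and in Rpl22 it is the H/W livers at 3 h, at 11.06, that stand apart from the other groups.

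Ribosomal protein genes were higher in L-E than in H/W livers at 3 h as a group, by small amounts. This list of 40 genes was assembled by symbol after these values had been seen. Of the 40, 21 were called higher in L-E and none lower (1.58% of all genes were called higher), 38 were positive, and the median difference was 0.31 against -0.04 over all genes. In corn oil none was called (3 with an unadjusted p under 0.05, against 12.7% of all genes) and the median was -0.00425. Rpl7a read 13.03, 13.04, 12.89 and 12.97 in L-E and 12.41, 12.51, 12.45 and 12.51 in H/W livers at 3 h (0.51, SE 0.04, adjusted p = 0.0014), and 12.73 to 12.79 and 12.60 to 12.80 in corn oil. The 3 h groups were apart, the corn oil groups overlapped, and the change was 0.48 (SE 0.07, adjusted p = 0.00894).

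Rps16, Rps23, Rpsa and Rpl22 had changes of 0.58, 0.46, 0.45 and 0.42, each with an adjusted p of 0.00894. Against corn oil, Rpl22 fell in H/W livers by 0.43 (adjusted p = 0.00308) and was level in L-E livers (-0.01, adjusted p = 0.902), whereas Rps16 was at 0.43 in L-E (adjusted p = 0.0107) and -0.15 in H/W livers (adjusted p = 0.125). These genes are bright (38 of the 40 lie in the brightest 40%), where the median of all genes was 0.09 at 3 h. After quantile normalization the list's median was 0.25 with 6 calls, and after cyclic loess 0.21 with 5. The 5 calls of a change were lost under both. With 1 of the 16 arrays left out, Rpl7a was called in 1 fit and the other 4 genes in none (adjusted p 0.0107 to 0.0278). Ribosomal protein genes have many processed pseudogenes, which these probe sets may also read.

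Oxidative phosphorylation, the mitochondrial chain that makes ATP, also ran higher in L-E by small amounts. Of 48 measured genes 8 were called higher in L-E at 3 h and none lower (1.58% of all genes were called higher). Of the 48, 47 were positive (3764 of all 10411 genes), and the median was 0.22 (all genes -0.04). In corn oil none was called (15 with an unadjusted p under 0.05, against 12.7% of all genes), 34 were positive and the median was 0.12, and no change was called (median 0.10). The calls took in ATP synthase subunits, with Atp5f1a at 0.34 (SE 0.03, adjusted p = 0.00159) and Atp5f1d at 0.34 (SE 0.04, adjusted p = 0.00442), and cytochrome oxidase subunits, with Cox8a at 0.48 (SE 0.07, adjusted p = 0.00968) and Cox4i1 at 0.25 (SE 0.04, adjusted p = 0.00968). These named genes are bright, with group means of 10.45 to 12.52 at 3 h. In the 4164 brightest genes the median difference was 0.09 at 3 h, and 148 of them were called higher in L-E. How many of the 48 are among these was not counted. With quantile normalization the list had 1 call (median 0.14, 36 of 48 positive) and with cyclic loess 2 (median 0.12, 35 positive).

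Of 23 measured genes of fatty acid synthesis, 4 were called higher in L-E livers at 3 h and none lower (1.58% of all genes were called higher). The list had the largest median difference of those examined (0.62, against 0.04 in corn oil). Of the 23, 11 reached an adjusted p under 0.05 (6.69% of all genes), and 20 were positive. None was called in corn oil or for the change, whose median was 0.85 (all genes 0.01), while 5 and 10 had an unadjusted p under 0.05 in these tests (12.7% and 9.96% of all genes). Me1, the malic enzyme that supplies NADPH for this pathway, read 9.29, 10.12, 9.47 and 9.92 in L-E and 5.03, 6.25, 5.79 and 5.84 in H/W livers. The groups lay over 3 log2 units apart (3.97, SE 0.29, adjusted p = 0.000919), and in corn oil they were closer (1.77, SE 0.39, adjusted p = 0.102). The change was 2.21 (SE 0.51, adjusted p = 0.0878), and the other probe set of Me1 differed by 4.94 at 3 h.

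Thrsp, a lipogenic protein that responds to thyroid hormone and carbohydrate, read 14.31, 14.65, 14.30 and 14.15 in L-E and 13.03, 12.92, 13.35 and 12.87 in H/W livers at 3 h (1.31, SE 0.14, adjusted p = 0.0034). In corn oil its groups overlapped, at 11.86 to 13.75 and 11.91 to 12.97 (0.09, adjusted p = 0.893). Its other probe sets differed by 1.34 and 1.42 at 3 h. Elovl5, an elongase, and Slc25a1, the mitochondrial citrate carrier, were called at 0.53 and 0.33 (adjusted p = 0.00321 and 0.00603).

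Between 0.01 and 0.05 lay Elovl6, the elongase of palmitate, with 9.50, 10.16, 9.54 and 8.59 in L-E and 7.34, 7.09, 5.95 and 7.37 in H/W livers (2.51, SE 0.43, adjusted p = 0.0169). No L-E liver was as low as any H/W liver. Also there were the desaturase Fads2 (1.71, adjusted p = 0.0167), fatty acid synthase Fasn (1.25, adjusted p = 0.0352), ATP citrate lyase Acly (1.15, adjusted p = 0.0347) and acetyl-CoA carboxylase Acaca (0.62, adjusted p = 0.036). Scd, the stearoyl-CoA desaturase, differed by 0.46 (adjusted p = 0.114).

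Relative to corn oil rats, 3 of these genes were called higher in L-E livers at 3 h (1.38% of all genes), Elovl6 (4.97, adjusted p = 0.000747), Scd (3.87, adjusted p = 0.00467) and the phosphatidate phosphatase Lpin1 (2.98, adjusted p = 0.00134). In H/W livers Lpin1 was called higher (2.99, adjusted p = 0.00183, 0.749% of all genes), while Scd stood at 2.53 (adjusted p = 0.0612) and Elovl6 at 2.01 (adjusted p = 0.212). The list's median against corn oil was -0.01 in L-E (11 of 23 positive) and -0.25 in H/W livers (7 positive), with -0.01 and -0.02 over all genes. At an adjusted p under 0.05, 6 were higher and 1 lower in L-E, and 2 higher and 5 lower in H/W livers. Over all genes, 8.42% and 4.76% were called at this threshold either way. Under quantile normalization and cyclic loess the list's median strain difference at 3 h was 0.53 and 0.52, with 3 and 2 calls.

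Genes of cholesterol synthesis and uptake had a median of 0.44 (21 genes, -0.03 in corn oil), or 0.27 with the probe sets of a gene averaged, with 19 positive and 1 called (2.18% of all genes). This was Dhcr7, the last enzyme of the pathway, with 9.95, 10.14, 10.25 and 10.12 in L-E and 8.91, 9.26, 9.07 and 9.37 in H/W livers (0.96, SE 0.11, adjusted p = 0.00478). In corn oil its groups overlapped (0.04, adjusted p = 0.936). Against corn oil, 4 members were called lower in L-E (1.16% of genes tested) and 5 in H/W livers (0.346%), Sc5d, a sterol desaturase, in both (-0.72, adjusted p = 0.00238 and -1.23, adjusted p = 0.00303). After quantile normalization the call of Dhcr7 was lost and the list's median was 0.34.

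**Figure D5:**
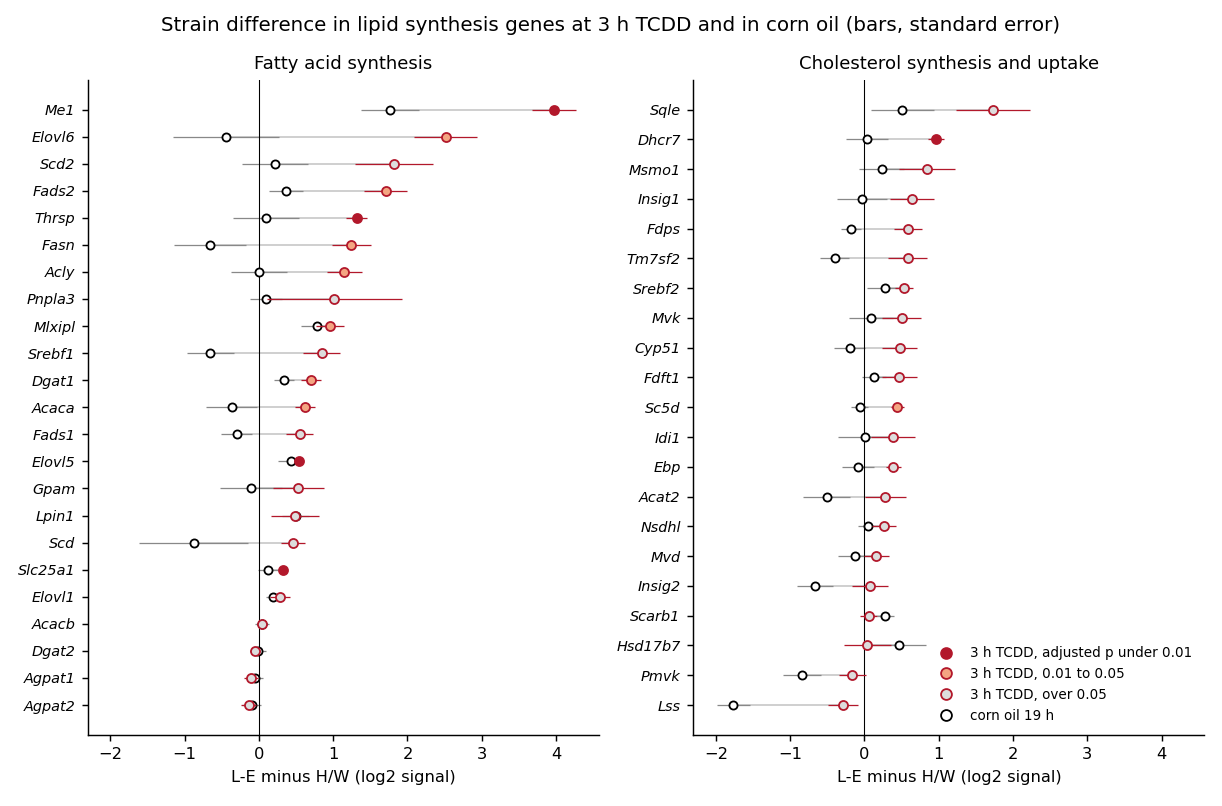
L-E minus H/W difference (x axis, log2 signal, bars for the standard error) of each measured gene of fatty acid synthesis (left) and of cholesterol synthesis and uptake (right), at 3 h after TCDD (red outlines, filled by adjusted p) and in corn oil at 19 h (open black). At 3 h 20 of 23 and 19 of 21 genes lie to the right of 0, against 12 and 10 in corn oil.

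Male-predominant liver genes, whose expression follows the male pattern of growth hormone, ran the other way. Of 17 measured, 6 were called lower in L-E at 3 h and none higher (0.605% of all genes were called lower), with a median of -0.27, and in corn oil 2 were called lower (0.106% of genes tested). Mup5, a urinary lipocalin, read 6.77, 6.70, 6.86 and 6.52 in L-E and 11.01, 10.86, 10.66 and 11.12 in H/W livers (-4.20, SE 0.11, adjusted p = 9.04e-06), and Obp3, of the same family, differed by -1.97 (SE 0.25, adjusted p = 0.00622). In corn oil these were -4.49 and -2.04 (adjusted p = 0.000638 and 0.00176), and the other probe sets of Mup5 differed by -1.35 and -2.29 at 3 h. The urinary lipocalins are near-identical copies, and a probe set may read several of them.

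The other 4 were the P450 Cyp3a18 (-0.94, adjusted p = 0.00629), carbonic anhydrase Car3 (-0.72, adjusted p = 0.00725), the growth hormone receptor Ghr (-0.46, adjusted p = 0.0088) and the P450 Cyp2c13 (-0.27, adjusted p = 0.00877). Each of these 4 calls was lost without any 1 of at least 7 of the 8 arrays, and that of Obp3 without any 1 of 6. Cyp2c11, the best known male P450 of rat liver, differed by -0.01 (adjusted p = 0.82). Whether Ghr, the hormone's own receptor, is male-predominant like the rest of this list was not examined, since all rats were males.

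Other drug-metabolising genes divided by strain one at a time. Of 32 measured P450 genes of families 2 to 4, 3 were called higher and 3 lower in L-E (1.58% and 0.605% of all genes). Cyp2e1, which oxidises ethanol, read 14.43, 14.52, 14.57 and 14.46 in L-E and 13.61, 13.59, 13.75 and 13.62 in H/W livers (0.85, SE 0.05, adjusted p = 0.000284). It was lower than in corn oil in both strains (-0.45, adjusted p = 0.00262 and -0.79, adjusted p = 0.00455), with no call for the change of the strain difference (0.34, adjusted p = 0.217). Cyp2f4 was at 0.41 (adjusted p = 0.00498) and Cyp4v3 at -0.48 (adjusted p = 0.00101). Of 18 glutathione S-transferases, Gstm4 (-1.91, adjusted p = 0.00478) and Gstz1 (-0.13, adjusted p = 0.00725) were called lower (0.605% of all genes). No member of the glucuronidation and sulfation list (18 genes) was called by limma, with 8 at an unadjusted p under 0.05 (35.2% of all genes). Of 13 NRF2 targets only Me1 was called (2.18% of all genes).

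Among 13 coagulation genes 3 were called (2.18% of all genes). Klkb1 (plasma kallikrein, 0.88, adjusted p = 0.001), F10 (coagulation factor X, 0.51, adjusted p = 0.000769) and Cpb2 (an inhibitor of fibrinolysis, 0.46, adjusted p = 0.00697) were higher in L-E livers. F10 read 12.16 to 12.23 in L-E and 11.59 to 11.74 in H/W livers at 3 h, and was called in corn oil too (0.44, adjusted p = 0.00234). Of 26 genes of folding and degradation in the endoplasmic reticulum, 3 were called lower in L-E (0.605% of all genes), led by the chaperone Hyou1 (-2.01, SE 0.13, adjusted p = 0.00046, and -3.07 in corn oil), with the oxidase Ero1b (-0.78, adjusted p = 0.000303) and Sdf2l1 (-0.78, adjusted p = 0.00752).

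Among acute phase genes Lbp, which binds bacterial lipopolysaccharide, was at 1.73 (SE 0.14, adjusted p = 0.0014) and the protease inhibitor Mug1 at 0.61 (adjusted p = 0.00472), while the fibrinogen chain Fga was at -0.28 (adjusted p = 0.00856), 3 of 28 genes in all (2.18% of all genes were called). The list's median was 0.04, and -0.00436 after quantile normalization and -0.05 after cyclic loess. In bile acid synthesis, 3 of 24 genes were called higher in L-E (1.58% of all genes), Slc27a5 (1.03, adjusted p = 0.00603) and Baat (0.34, adjusted p = 0.00509), which conjugate bile acids in sequence, and the sterol hydroxylase Cyp27a1 (0.60, adjusted p = 0.00603). All 3 bile acid calls were lost after quantile normalization. In amino acid catabolism and the urea cycle, 3 of 40 genes were called lower in L-E (0.605% of all genes), Bckdhb (-1.48, adjusted p = 0.000359), the urea cycle enzyme Otc (-0.53, adjusted p = 0.00497) and Gstz1, which also takes part in tyrosine breakdown.

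Single members were called higher in L-E (1.58% of all genes) in 4 more lists: Hfe, a regulator of iron uptake (0.81, adjusted p = 0.00051), the glycolytic enzyme Eno1 (0.38, adjusted p = 0.00255), the nuclear receptor Ppard (1.34, adjusted p = 0.0088) and, among immediate early and Klf factors, Sgk1. The call of Ppard was lost with quantile normalization, cyclic loess or the mean of probe sets, and that of Eno1 with quantile normalization. No member was called of the lists of circadian clock genes (16), DNA damage and cell cycle arrest (14) and fatty acid oxidation (31), whose median differences at 3 h were -0.05, -0.06 and -0.06, and of which 5, 6 and 11 had an unadjusted p under 0.05 by limma (35.2% of all genes).

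Markers of other liver cells were set beside these genes, and whether they moved together was not tested. The summed signal of 15 macrophage and other immune cell markers was 3395 to 4611 in L-E and 1992 to 2254 in H/W livers at 3 h, which do not overlap, and 2557 to 3465 and 1732 to 2862 in corn oil. The members did not move one way: 6 of the 15 were positive, and their median was -0.04, as over all genes. The groups lay apart with L-E higher in 5 members (8.80% of all genes) and with H/W higher in 5 (23.7% of all genes). The sum follows its brighter members, such as Clec4f (10.81 in L-E and 9.80 in H/W livers, adjusted p = 0.053) and Cd14 (10.05 and 9.20). Csf1r, the macrophage growth factor receptor, was the 1 member of the 15 called (0.96, SE 0.11, adjusted p = 0.00472, with 2.18% of all genes called). Its call was lost after quantile normalization and after cyclic loess. Cd3d, Cd8a, Cd79b, Nkg7 and Gzmb, which define lymphocytes, were under the array median in both strains. The part of these cells in the differences of Gpnmb, Cd63 and RT1-Bb was not tested. In whole liver, more cells of a type and more RNA per cell cannot be told apart. The summed signals of 14 stellate and endothelial markers overlapped (2047 to 2838 and 1929 to 2178), those of 6 bile duct markers did not (3086 to 3537 and 1869 to 2932), and no member of either list was called (3 and 2 at an unadjusted p under 0.05, against 35.2% of all genes). Krt19, Krt7, Spp1 and Cldn7, which mark bile ducts, were under the array median, so the bile duct sum follows its remaining members. Of the 6 bile duct markers 2 were positive, and their median was -0.04, as over all genes. The summed signal of the 9 hepatocyte markers did not overlap either (294130 to 302784 in L-E and 271907 to 275854 in H/W livers). In corn oil these sums overlapped (269116 to 290898 and 269109 to 288392). No hepatocyte marker was called at 3 h, 8 were positive, and their median was 0.10, against 0.09 in the 4164 brightest genes. After quantile normalization 4 of the 9 were positive (median -7.11e-15), and 4 after cyclic loess (median -0.00354). Whether the hepatocyte sums stay apart under these scalings was not tested.

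Of the 63 named genes called at 3 h, 24 stayed called without each of the 8 arrays in turn, among them Cyp2c12, Me1, Mpzl1, Bco1, Agtr1a, Gne, Mup5, Sqor, Retsat, Marveld1, Cela1, Cyp2e1, Hyou1, Lbp, F10, Rpl7a, Rps16 and Rpl22. A difference in sequence between the strains under a probe would also read as a difference in signal. Of the 42 called genes with several probe sets, the other probe sets with a signal above the array median in a strain had the same sign in 27 of 34 cases and were called with the same sign in 9. Both cases called with the opposite sign belonged to Rab14, a small GTPase of endosomes (1.21 for the probe set used, -0.96 and -2.46 for these others), named here after its values were seen.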

How the data were processed

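Total RNA of rat liver was measured on RAE230A arrays, 1 rat per array. In the notes of the submitters on processing, the tools are R 2.3.1, affy 1.10.0 and GCRMA 2.4.1, and the authors deposited log2 signals, already background-corrected and quantile-scaled, for 15923 probe sets. The published methods describe RMA with an Entrez-based probe map, but the deposited rows carry the manufacturer's probe sets, and the deposited values were used as they stand. No scanner intensities were used.

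Gene symbols came from the platform annotation (12783 probe sets with 1 symbol, 312 with several, 2771 with none; 57 control probe sets left out). A gene with several probe sets was read from the brightest of them on average over 40 arrays, which gave 10411 genes. In R 4.3.3, limma 3.58.1 (lmFit and eBayes) was fitted to each pair of groups, and to 16 arrays for the change of the strain difference between corn oil and 3 h TCDD, with Benjamini-Hochberg adjustment over all genes and a threshold of 0.01. Groups and replicates came from the labels. Arrays give no read depth, and the 4 rats of a group limit the precision. In simulated data with these spreads, 37 of 50 genes changed by 1 log2 unit at 3 h were called, and also 37 of 50 changed by 0.5. The simulation had independent noise, few changed genes and no shift with signal height. It therefore does not give the share of real differences that was missed.

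Named genes were the 10 largest differences each way at 3 h among called genes whose groups did not overlap, the genes with a called change (up to 10 each way), every measured AHR-inducible and AHR complex gene, and up to 6 called members of each other list. Creg1, Rab14, the lipid genes with an adjusted p over 0.01 at 3 h, Cyp2c11 and single cell markers were named after their values were seen. The comparison and the 28 gene lists were chosen with earlier results of these data known, and the ribosomal list was assembled by symbol later. Alternatives were the mean of probe sets, leaving out the lowest 40% of genes, quantile normalization, median centring, limma's trend, a threshold of 0.05, 1 fit over all groups, the replicate number or scan day as a block, each array left out in turn and, chosen after seeing the data, cyclic loess. Animals dosed for 19 h entered no test beyond the fit over all groups. Promoters are RefSeq sequences of GRCr8.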

Additional observations from a re-analysis of the deposited data

Results flagged for a closer look

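In the 332 groups of 4 rats formed by the 83 named genes at 3 h and in corn oil in both strains, 1 rat stood apart from the other 3 by Dixon's test in 30 groups, and chance gives this in about 1 of 20 groups. Among AHR-inducible genes in corn oil, H/W replicate 3 stood high for Cyp1a1 (8.60, others 2.38 to 2.89) and Cyp1a2 (14.29, others 13.94 to 13.96), H/W replicate 2 low for Exoc3 (5.97), L-E replicate 3 high for Tiparp (6.85) and L-E replicate 1 high for Cyp1b1 (3.79). At 3 h, Nqo1 was low in L-E replicate 2 (11.31, others 11.61 to 11.64) and high in H/W replicate 4 (10.98, others 10.21 to 10.34). In the AHR complex the single values were 2.64 for Ahr in H/W replicate 2 at 3 h, 3.73 for Arnt in L-E replicate 1 and 4.49 in H/W replicate 3 at 3 h, and, in corn oil L-E rats, 3.16 for Ncoa2 in replicate 3, 1.42 for Ncoa3 in replicate 2 and 8.90 for Hif1a in replicate 2.

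Among the genes with the largest strain differences, RT1-Bb was low in L-E replicate 3 at 3 h (8.36, others 8.74 to 8.81) and high in H/W corn oil replicate 1 (7.74, others 6.50 to 6.65). Dcn read 5.98 in H/W corn oil replicate 3 against 2.70 to 3.14, and Aqp1 read 6.84 in H/W replicate 3 at 3 h against 5.21 to 5.38. Sqor was low in H/W replicate 1 at 3 h (9.53), L-E corn oil replicate 3 (6.71) and H/W corn oil replicate 1 (10.05), and Agtr1a in H/W corn oil replicate 3 (11.06). In corn oil H/W rats, Mug1 (12.38, replicate 3), Gstm4 (8.23, replicate 4), Cox8a (11.63, replicate 4) and Rpl7a (12.60, replicate 1) were low and Atp5f1a (12.44, replicate 3) was high. In corn oil L-E replicate 4, Bckdhb (9.44), Cox8a (12.39) and Atp5f1a (12.59) were high, and Atp5f1c was high in H/W replicate 4 at 3 h (12.34).

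The strain difference changed between corn oil and 3 h TCDD, by the test of the change itself, for Mpzl1 (1.65), Rps16 (0.58), Rpl7a (0.48), Rps23 (0.46), Rpsa (0.45) and Rpl22 (0.42).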

How the results depend on the processing

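The count of 227 genes at 3 h became 128 with quantile normalization (111 shared), 135 with cyclic loess (119 shared), 380 with 1 fit over all groups and 696 at an adjusted p under 0.05, and 75 to 118 without any 1 array. The 27 corn oil calls became 210 with 1 fit, 96 at 0.05 and 8 with scan day as a block, and 10 to 25 without any 1 array. The 6 changes of the strain difference became 20 with 1 fit, 33 at 0.05, 1 with scan day as a block (Mpzl1) and 0 to 4 without any 1 array (4 without H/W corn oil replicate 1). By limma they fell to 0 with the mean of probe sets, the lowest 40% of genes left out, quantile normalization, median centring, limma's trend and cyclic loess, where 1037, 925, 1048, 1074, 997 and 1047 genes had an unadjusted p under 0.05. The 19 line calls became 77 with 1 fit, 89 at 0.05 and 9 to 23 without any 1 array. The 265 and 114 genes called against corn oil in L-E and H/W became 415 and 186 without the lowest 40% of genes, 742 and 595 with 1 fit and 877 and 496 at 0.05, and 98 to 213 and 49 to 173 without any 1 array. The replicate numbers did not pair the rats (same-number correlations -0.14 to 0.29). With the replicate block the counts were 33 at 3 h, 8 in corn oil, 0 for the change (1052 at an unadjusted p under 0.05, with Mpzl1 at an adjusted p of 0.0321), 7 in the lines, 0 in L-E (2210) and 3 in H/W. No called difference of a named gene changed sign under these alternatives. List medians at 3 h near 0 did: with quantile normalization and cyclic loess, AHR-inducible genes went from 0.11 to -0.02 and -0.000191 and acute phase genes from 0.04 to -0.00436 and -0.05. The majority of calls turned at 3 h from 164 higher and 63 lower to 60 and 68 with quantile normalization and to 64 and 71 with cyclic loess, against corn oil in L-E from 144 and 121 to 98 and 147 with quantile normalization, and in corn oil from 16 and 11 to 3 and 5 with scan day as a block and to 2 and 6 with the replicate block. Of the 63 named genes called at 3 h, 22 lost the call under quantile normalization, 19 under cyclic loess and 13 in 1 fit. Beyond fewer arrays or genes in a fit, the cause of these moves was not tested. Signals near the array median have little room to fall, so differences of Agtr1a, Marveld1, Mpzl1, Cyp1a1 and Aldh3a1 depend on the low end of the scale.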
